A study of Homo sapiens with 6 samples.

Results

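A set of 52 human genes was expressed in DMSO and nearly lost after 4 h with 500 nM of compound 28, which the series title calls a degrader of CDK9. They were chosen by their measured values in this very contrast: a mean of at least 300 normalized counts over the 3 DMSO libraries, and a compound 28 mean of at most 1/12 of it. Of 32268 rows used, 9488 reached the level limit, and 75 of those met both limits. The rule then left out 23 by name, among them zinc finger, HOX and KLF genes, so the 52 are 0.548% of the expressed genes. Because the same values chose the genes, their fall is a description and is not tested. In bulk RNA, fewer cells of a type and less RNA per cell cannot be told apart.

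CDK9, with a cyclin T, forms P-TEFb. By phosphorylating the pausing factors and RNA polymerase II, it lets polymerases that wait just downstream of promoters go on into the gene body. When release stops, a transcript is no longer replaced and declines at the pace of its own decay. Short-lived mRNAs, many of which encode transcription factors, signalling regulators and cell cycle proteins, are known to decline first, while long-lived mRNAs persist.

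The 6 libraries are 3 of cells given DMSO, for which no time is stated, and 3 of cells given compound 28; all carry the label WT. Titles name the line MDA-MB-231, an established line of triple-negative breast cancer, but the cell line label rises by 1 digit per sample and ends at MDA-MB-236, so the labels conflict. No label states that the replicates came from separate cultures, so the p-values cover the spread between these 6 samples and no more, and that spread may be technical. Reads in genes ranged from 37153389 to 54774118 in DMSO and from 28466674 to 34015170 after compound 28. The markers of the labelled tissue were largely absent: of 11 epithelial and breast genes in the table, 8 had a DMSO mean under 10 and 0 reached 300, with EPCAM at 0.287, CDH1 at 0.647 and TFF1 at 0. The highest of the 11 were KRT8 at 272, ERBB2 at 153 and KRT18 at 56.9. Of 14 mesenchymal markers in the table, 5 reached 300, VIM among them at 3056, while CAV1, MET and CTGF had DMSO means of 0.216, 0 and 0.287. All 18 myeloid markers were in the table and 14 reached 300, and their summed normalized count was 177625 to 200758 in DMSO and 261951 to 279581 after compound 28. In the authors' normalization, 10 of the 18 had a higher mean after compound 28, AZU1 and LAPTM5 the most abundant of them. A lower mean was seen in 8, PTPRC, SPI1, CD33, CSF1R, CEBPE, FLT3, MS4A3 and CORO1A. The cells are therefore called by their title only, and the part of this mismatch in the results was not tested. EGFR was not analysed here.

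All 52 genes had groups that did not overlap, as the limits of the rule nearly impose. The share of all genes with such groups was not computed, so nothing is read from this count. Of all 18326 genes tested by limma-trend, 37.2% were called lower and 35.6% higher at an adjusted p under 0.05. The DMSO means of the 52 genes ran from 304 to 3115 normalized counts with a median of 553, and their compound 28 means from 9.04 to 206 with a median of 33.6. The ratio of the group means ran from 12.1 to 65.3 with a median of 15.2, that is, 1.53% to 8.27% of the DMSO level was left. In the other genes with a DMSO mean of at least 300, the median share left was 87.0%. Summed over the 52 genes, the libraries held 37313, 37847 and 39969 normalized counts in DMSO replicates 1 to 3 and 2328, 2332 and 2216 in compound 28 replicates 1 to 3. The 3 compound libraries thus gave nearly the same sum, and none stood apart in it. Outside the set, HBB, a marker of red blood cells, stood at 0, 874 and 0 in compound 28 replicates 1 to 3. The cause was not tested. All 52 passed the filter on low values and all 52 were called lower, which the choice of genes fixes. In the authors' deposited table their log2 fold changes ran from -6.04 to -3.61.

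**Figure D1:**
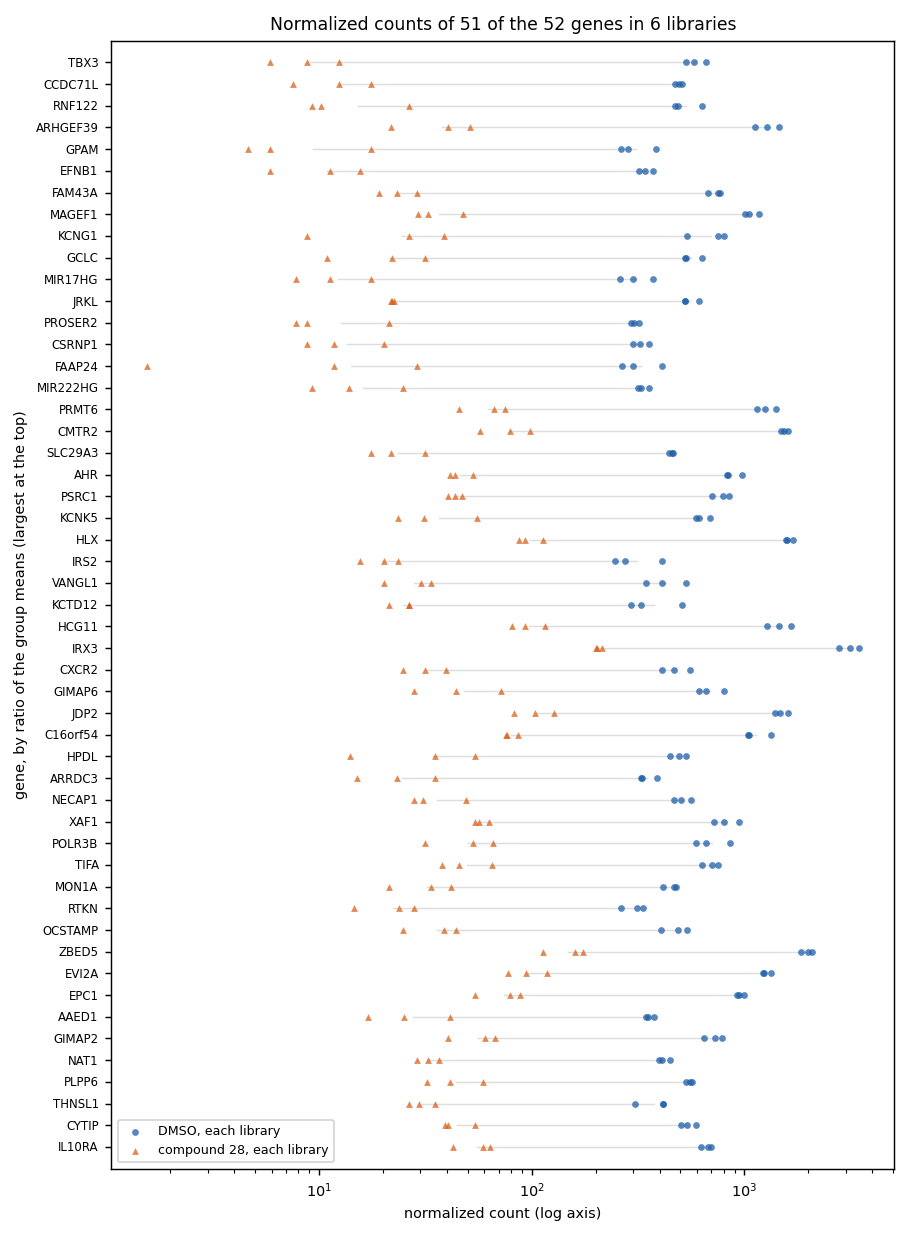
Normalized counts (log axis) of 51 of the 52 genes in each of the 6 libraries, sorted by the ratio of the group means, with a grey line between the means. Every DMSO value lies above every compound 28 value of the same gene, and the lowest point is FAAP24 in compound 28 replicate 3 at 1.55.

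The genes were not the most abundant ones. Per kilobase of transcript, the 51 with a matched gene model had a median of 187 normalized counts in DMSO and a range of 38.3 to 1197, against a median of 476 over 9263 other genes that reached the level limit. IRX3 led this scale with 1197, followed by ZBED5 with 719 and HLX with 709, and IRS2 was the lowest. At the limits, THNSL1 with a ratio of 12.4, CYTIP with 12.2 and IL10RA with 12.1 were just inside the fold limit. CEBPD with 11.8, CUTA with 11.8 and DDIT4 with 11.7 fell just outside it, CUTA with 1 DMSO library (replicate 2) far above the other 2, as its DMSO mean of 619 and SD of 829 show. PROSER2 with a DMSO mean of 305 and RTKN with 304 were just inside the level limit, and FZD1 with 296, DLX2 with 289 and RGS16 with 282 just outside. DLX2 and RGS16 had ratios of 28.1 and 31.0.

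**Figure D2:**
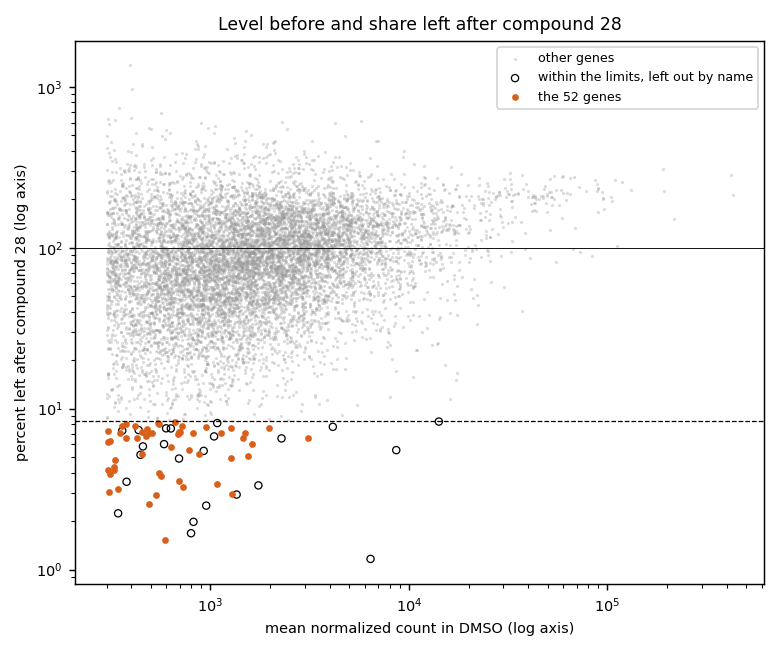
Mean normalized count in DMSO (log axis) against the percent left after compound 28 (log axis) for genes with a DMSO mean of at least 300. Orange points are the 52 genes, open circles the 23 genes within the limits that the rule left out by name, grey points the other genes, and the dashed line is 1/12 of the DMSO level.

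The noncoding members are described first, because the products they carry can be spelled out. In what follows, per-library values are normalized counts in the order of replicates 1 to 3.

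Of the 52 genes, 3 are noncoding by GENCODE, and 2 of these are precursors of microRNAs. MIR17HG, the host transcript of the miR-17-92 cluster that drives proliferation and restrains apoptosis in many cancers, stood at 298, 262 and 373 in DMSO and 17.6, 11.3 and 7.77 after compound 28, a ratio of 25.4. MIR222HG, the host of miR-221 and miR-222, which target cell cycle inhibitors, stood at 316, 356 and 327 in DMSO and 25, 13.8 and 9.33 after compound 28, a ratio of 20.8. Both were low in each compound library and neither group overlapped. HCG11, a long noncoding RNA of the major histocompatibility region, stood at 1280, 1460.1 and 1649 in DMSO and 116, 93.1 and 80.8 after compound 28, a ratio of 15.1. The mature microRNAs themselves are not measured by libraries of polyadenylated RNA. The row named for 1 hairpin of MIR222HG was low, MIR221 at 15.7 ± 0.894 in DMSO and 0.419 ± 0.726 after compound 28 (SD, n = 3), and reads there cannot be told apart from those of the host, which spans them.
The sequences below are the mature products that the lost hosts encode, from RefSeq on GRCh38.p14, each with its seed (bases 2 to 8) in capitals; they are shown because the seed fixes which mRNAs a microRNA can pair with.
hsa-miR-17-5p: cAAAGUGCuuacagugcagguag
hsa-miR-20a-5p: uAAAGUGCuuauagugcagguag
hsa-miR-18a-5p: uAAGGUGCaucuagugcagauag
hsa-miR-19a-3p: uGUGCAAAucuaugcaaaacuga
hsa-miR-19b-3p: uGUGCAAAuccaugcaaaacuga
hsa-miR-92a-3p: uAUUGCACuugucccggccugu
hsa-miR-221-3p: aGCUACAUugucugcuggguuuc
hsa-miR-222-3p: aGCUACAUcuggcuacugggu
The MIR17HG products lie between chr13:91350618-91350640, plus strand, and chr13:91351361-91351382, plus strand. The products miR-17-5p and miR-20a-5p share the seed AAAGUGC, and miR-19a-3p and miR-19b-3p share GUGCAAA. MIR222HG carries miR-221-3p at chrX:45746180-45746202, minus strand, and miR-222-3p at chrX:45747036-45747056, minus strand, which share the seed GCUACAU. RefSeq places 12 mature sequences with 9 different seeds inside MIR17HG and 3 with 2 inside MIR222HG.

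Regulators of transcription made up 8 of the 52 genes and included the largest fall. TBX3, a T-box factor that mostly represses and acts in limb and mammary development, stood at 579, 531 and 660.1 in DMSO and 5.88, 8.80 and 12.4 after compound 28. Its ratio of 65.3 was the largest of the set, and 4, 7 and 8 reads remained in the compound libraries. IRX3, an Iroquois homeobox factor, kept the highest level of the set per kilobase and stood at 3123, 2771 and 3451 in DMSO and 214, 200 and 204 after compound 28, a ratio of 15.1. Its 3 compound libraries differed by little, with a coefficient of variation of 3.65%. HLX, a homeobox factor of blood and gut development, stood at 1689.9, 1570.2 and 1589 in DMSO and 113, 86.8 and 93.3 after compound 28. JDP2, a leucine zipper protein that pairs with JUN and represses its targets, stood at 1609, 1389.5 and 1473 in DMSO and 82.3, 127 and 104 after compound 28. AHR, the receptor that binds dioxin and tryptophan metabolites and switches on xenobiotic enzymes, stood at 836, 826 and 973 in DMSO and 52.9, 41.5 and 43.5 after compound 28. In each of these the lowest DMSO library lay above the highest compound library by a factor of 10.9 or more. CSRNP1, a nuclear protein induced by AXIN, stood at 324, 357 and 299 in DMSO and 11.8, 8.80 and 20.2 after compound 28, a ratio of 24.0. EPC1, a scaffold of the TIP60 histone acetyltransferase complex, stood at 923, 946 and 999 in DMSO and 88.1, 54.1 and 79.3 after compound 28, a ratio of 12.9. PRMT6, a methyltransferase that places a repressive arginine mark on histones, stood at 1146, 1253 and 1404 in DMSO and 45.5, 66.7 and 74.6 after compound 28, a ratio of 20.4.

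Relatives of these factors, genes the rule did not choose, fell less or rose. For relatives that reached the level limit, the rule nearly imposes this. They were picked by name after the values had been seen, and their changes are given from the same fit as group means with SD (n = 3). Counts of relatives called, here and below, stand beside 37.2% of all genes tested called lower and 35.6% higher. Among other protein-coding genes at the level limit, the share called lower ran from 44.2% with 9 or more coding exons to 69.9% with 1. EPC2, the paralogue of EPC1, fell from 1020.2 ± 145 to 144 ± 9.27 (log2 change -2.80, adjusted p = 1.0e-07), the largest fall among relatives that reached the level limit. BATF, a leucine zipper paralogue of JDP2 and its neighbour in the genome, fell from 672 ± 27.8 to 126 ± 28.0 (log2 change -2.44, adjusted p = 1.0e-06). IRX5, an Iroquois paralogue of IRX3, fell from 312 ± 6.55 to 123 ± 9.40 (log2 change -1.34, adjusted p = 2.4e-05). Of 5 paralogues of TBX3 tested, 1 was called lower and 4 higher. TBX6 fell from 247 ± 26.0 to 58.3 ± 20.4 (log2 change -2.11, adjusted p = 3.2e-05), while TBX2 rose from 1.15 ± 1.32 to 218 ± 50.6. TBX1, TBX19 and TBX20 had log2 changes of 0.64, 1.61 and 1.13 in the authors' normalization, and under mitochondrial scaling of -0.81, 0.16 and -0.31. Of 6 other PRMT genes tested, 4 were called lower and 1 higher. The paralogues PRMT5 and PRMT9 fell from 1608 ± 124 to 469 ± 110.1 (log2 change -1.80, adjusted p = 2.6e-06) and from 427 ± 57.1 to 151 ± 19.5 (log2 change -1.49, adjusted p = 1.8e-05), and PRMT1 rose from 12922 ± 1088 to 18244 ± 1329 (log2 change 0.50, adjusted p = 7.6e-04), with a log2 change of -0.96 under mitochondrial and -0.62 under ribosomal protein scaling. Known targets of AHR did not move as one. CYP1B1, a cytochrome that AHR induces, fell from 364 ± 25.4 to 145 ± 29.3 (log2 change -1.33, adjusted p = 7.8e-05), and TIPARP, a feedback inhibitor, from 446 ± 37.5 to 200.3 ± 23.1 (log2 change -1.15, adjusted p = 4.8e-05). AHRR, the repressor that AHR itself induces, rose from 2099.9 ± 133 to 3554 ± 174 (log2 change 0.76, adjusted p = 1.9e-05) in the authors' normalization, and its log2 change was -0.70 under scaling on mitochondrially encoded mRNAs and -0.36 under scaling on ribosomal protein mRNAs. Other AHR targets that were tested, not named here, were called higher too in the authors' normalization, with log2 changes of 0.63 and 1.68. The target with 1.68 had a DMSO mean of only 38.8.

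Genes of RNA and DNA metabolism and of mitosis numbered 4. CMTR2, the enzyme that methylates the second nucleotide of mRNA caps, stood at 1479, 1542 and 1601 in DMSO and 57.3, 79.2 and 97.9 after compound 28, a ratio of 19.7. CMTR1, which methylates the first nucleotide, went from 1349.7 ± 186 to 1449 ± 151 (log2 change 0.11, adjusted p = 0.45) and was not called, but CMTR1 was called higher when scaled by upper quartiles (0.31) and lower when scaled by library size alone (-0.35) or by mitochondrial or ribosomal protein mRNAs. The cap methyltransferases were thus 4.42 log2 units apart in their change, most of it the fall for which CMTR2 was chosen. POLR3B, the second largest subunit of RNA polymerase III, stood at 595, 658 and 858 in DMSO and 66.1, 31.4 and 52.8 after compound 28, a ratio of 14. Of 9 other subunits tested, 7 were called lower and 0 higher, with a median log2 change of -0.71. POLR3A, the largest subunit and the partner of POLR3B in the active site, went from 1676 ± 298 to 1346 ± 129.7 (log2 change -0.31, adjusted p = 0.056) and was not called, but it was called lower by edgeR on recovered reads (log2 change -0.34, adjusted p = 0.028) and in limma with the replicate block (-0.31, adjusted p = 0.019). The same call came with TMM factors, library sizes, mitochondrial and ribosomal protein scaling, and without DMSO replicate 1 or compound 28 replicate 3. POLR3C fell from 1646 ± 96.0 to 483 ± 44.8 (log2 change -1.77, adjusted p = 2.8e-07). FAAP24, which pairs with FANCM in the Fanconi core complex of crosslink repair, stood at 301, 265 and 410.2 in DMSO and 11.8, 28.9 and 1.55 after compound 28, and its replicate 3 value was a single read. Of 10 other genes of that complex, 6 were called lower and 3 higher. FANCF fell from 431 ± 64.1 to 113 ± 2.80 (log2 change -1.92, adjusted p = 2.5e-06) and FAAP100 from 3368 ± 429 to 1297 ± 121 (log2 change -1.37, adjusted p = 1.8e-06). PSRC1, a spindle protein, stood at 849, 798 and 702 in DMSO and 47.0, 40.3 and 43.5 after compound 28, a ratio of 18.0.

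**Figure D3:**
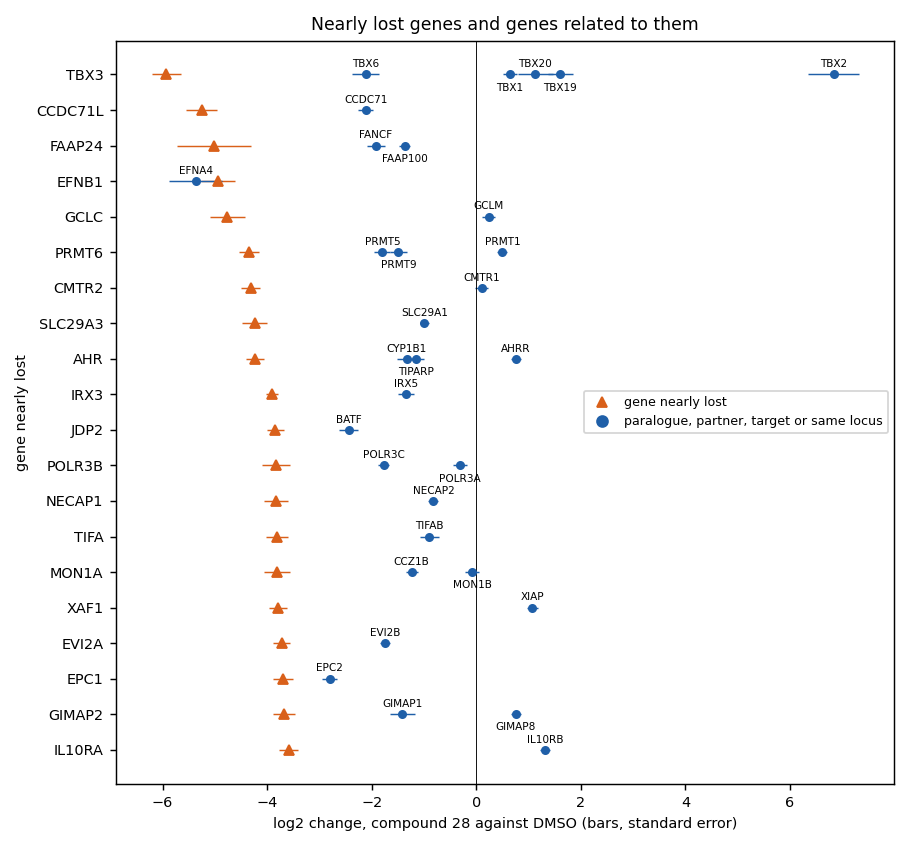
The log2 change on the log2(normalized count + 1) scale, with its standard error, of 20 of the 52 genes (triangles) and of 32 paralogues, complex partners, targets and locus neighbours (circles). Each circle but EFNA4 lies to the right of the triangle on its line, and TBX2 is the farthest to the right, with a DMSO mean of 1.15. For circles that reached the level limit, the choice of members nearly set this side in advance.

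Genes of leukocytes and innate immunity were the largest group together with signalling, 10 each, with ratios from 12.1 to 14.9. The summed myeloid markers given above were higher after compound 28 in the authors' normalization, while these 10 genes were lower. The marker sum was not computed under mitochondrial or ribosomal protein scaling. Those scalings moved the median log2 change of all genes from -0.03 to -1.47 and -1.13, so the direction of the sum depends on the scaling chosen. Of the 18 markers, 8 had a lower mean as well, CD33 among them at 6181 ± 126.8 in DMSO and 2570 ± 86.3 after compound 28. CXCR2, a neutrophil receptor for CXC chemokines, stood at 409, 466 and 554 in DMSO and 39.7, 31.4 and 24.9 after compound 28. IL10RA, the ligand-binding chain of the interleukin-10 receptor, stood at 678, 696 and 625 in DMSO and 58.8, 42.8 and 63.7 after compound 28. Its partner chain IL10RB rose from 1241 ± 85.2 to 3085 ± 159.5 (log2 change 1.31, adjusted p = 6.2e-07) in the authors' normalization, and its log2 change was -0.14 under scaling on mitochondrially encoded mRNAs. The receptor chains moved 4.91 log2 units apart, most of it the fall for which IL10RA was chosen. GIMAP2 and GIMAP6, GTPases of immune cells encoded in one cluster, stood at 644, 781 and 729 in DMSO and 67.6, 60.4 and 40.4 after compound 28, and at 609.6, 662 and 799 in DMSO and 72.0, 44.0 and 28.0 after compound 28. In the same cluster GIMAP1 fell from 196 ± 25.7 to 74.4 ± 20.9 (log2 change -1.41, adjusted p = 3.3e-04), whereas GIMAP8 rose from 820 ± 14.7 to 1388 ± 40.8 (log2 change 0.76, adjusted p = 2.6e-05) in the authors' normalization, with log2 changes of -0.70 and -0.36 under mitochondrial and ribosomal protein scaling.

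EVI2A, a membrane protein gene that lies inside an intron of NF1 on the opposite strand, stood at 1233, 1229.6 and 1335 in DMSO and 118, 94.3 and 77.7 after compound 28. EVI2B, in the same intron, fell from 2748 ± 78.6 to 822 ± 77.0 (log2 change -1.74, adjusted p = 1.7e-07). NF1 itself rose from 2033 ± 386 to 3724 ± 249 (log2 change 0.89, adjusted p = 1.1e-04) in the authors' normalization, with a log2 change of -0.57 under mitochondrial and -0.23 under ribosomal protein scaling. C16orf54 stood at 1048, 1035 and 1332 in DMSO and 86.7, 76.7 and 76.2 after compound 28, with a coefficient of variation of 7.40% in the compound libraries. XAF1, an interferon-induced protein that binds the caspase inhibitor XIAP, stood at 721, 947 and 801 in DMSO and 63.2, 56.6 and 54.4 after compound 28. XIAP had the opposite direction, from 1631 ± 166 to 3431 ± 249 (log2 change 1.07, adjusted p = 4.8e-06), except under mitochondrial and ribosomal protein scaling, where its log2 change was -0.38 and -0.04. TIFA, an adaptor that links a bacterial sugar to TRAF6 and NF-kB, stood at 629, 702 and 753 in DMSO and 45.5, 37.7 and 65.3 after compound 28, and its relative TIFAB fell from 5332 ± 1129.8 to 2867 ± 681 (log2 change -0.90, adjusted p = 9.1e-04). CYTIP, a scaffold that binds cytohesins in leukocytes, and OCSTAMP, a membrane protein of osteoclast fusion, went from 544 ± 47.5 to 44.6 ± 8.49 and from 478 ± 67.7 to 36.0 ± 9.85 (SD, n = 3).

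Signalling genes and channels held 10 members. ARHGEF39, a guanine nucleotide exchange factor, stood at 1125, 1278 and 1453 in DMSO and 51.4, 40.3 and 21.8 after compound 28, a ratio of 34.0. EFNB1, a membrane-bound ligand of Eph receptors, stood at 371, 319 and 339.6 in DMSO and 5.88, 11.3 and 15.5 after compound 28, a ratio of 31.5. KCNG1, a modulatory subunit of voltage-gated potassium channels, stood at 801, 752 and 538 in DMSO and 8.81, 26.4 and 38.9 after compound 28, and KCNK5, a potassium leak channel, went from 633 ± 50.9 to 36.6 ± 16.6. IRS2, an adaptor of the insulin receptor, stood at 247, 275 and 412 in DMSO and 23.5, 20.1 and 15.5 after compound 28; replicate 3 was the highest DMSO library. KCTD12, an auxiliary subunit of GABA-B receptors, likewise had its highest DMSO value in replicate 3, at 293, 327 and 511 in DMSO and 26.4, 21.4 and 26.4 after compound 28. VANGL1, a planar polarity protein, followed the same order with 345, 408 and 532 in DMSO and 33.8, 30.2 and 20.2 after compound 28. ARRDC3, an arrestin-like adaptor of receptor degradation, and RTKN, a scaffold protein that binds small GTPases, went from 349 ± 33.8 to 24.6 ± 10.1 and from 304 ± 37.5 to 22.2 ± 6.81 (SD, n = 3).

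Ubiquitin and vesicle genes held 4 members. RNF122, a RING-type ubiquitin ligase, stood at 632, 473 and 489.5 in DMSO and 10.3, 26.4 and 9.33 after compound 28, a ratio of 34.6 with a coefficient of variation of 62.6% after compound 28. MAGEF1, a MAGE protein that works with a ubiquitin ligase, stood at 1172, 1052 and 1005 in DMSO and 29.4, 47.8 and 32.6 after compound 28, a ratio of 29.4. MON1A, which with CCZ1 activates the late endosomal GTPase RAB7, went from 453 ± 35.6 to 32.4 ± 10.4. Its paralogue MON1B went from 3538 ± 616 to 3345 ± 542 (log2 change -0.08, adjusted p = 0.63) and was not called in either direction, with a log2 change of 0.12 under upper-quartile factors. MON1B was called lower when scaled by library size alone (-0.53), and under mitochondrial scaling (-1.54) and ribosomal protein scaling (-1.20). CCZ1B, whose near-identical copy CCZ1 may share its reads, fell from 1383 ± 105 to 587 ± 59.3 (log2 change -1.24, adjusted p = 4.1e-06). NECAP1, a clathrin adaptor accessory protein, went from 511 ± 48.9 to 36.0 ± 11.4, and NECAP2 from 1674 ± 70.9 to 949.6 ± 68.2 (log2 change -0.82, adjusted p = 2.3e-05).

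Metabolic enzymes and transporters held 8 members. GCLC, the catalytic subunit of the enzyme that limits glutathione synthesis, stood at 530.3, 526 and 634 in DMSO and 22.0, 31.4 and 10.9 after compound 28, a ratio of 26.3. GCLM, the modifier subunit of the same enzyme, went from 557 ± 66.6 to 653 ± 9.49 (log2 change 0.24, adjusted p = 0.098) and was not called, while its log2 change was -1.22 under mitochondrial and -0.88 under ribosomal protein scaling. Scaled by upper quartiles, GCLM was called higher (0.44), as it was when DMSO replicate 3 was left out (0.33). The subunits of this enzyme moved 5.00 log2 units apart, the widest gap among the partners named here. Most of this gap is the fall for which GCLC was chosen. GPAM, the mitochondrial acyltransferase that starts triglyceride synthesis, stood at 284, 264 and 383 in DMSO and 5.88, 17.6 and 4.66 after compound 28, a ratio of 33.1, with 1 compound library (replicate 2) well above the other 2. SLC29A3, a nucleoside transporter of lysosomes and mitochondria, stood at 454, 461 and 441 in DMSO and 17.6, 31.4 and 21.8 after compound 28, and its plasma membrane relative SLC29A1 fell from 3776 ± 70.8 to 1901 ± 168 (log2 change -0.99, adjusted p = 3.8e-06). HPDL, a mitochondrial dioxygenase-like protein, stood at 445, 532 and 495 in DMSO and 35.3, 54.1 and 14 after compound 28. Group means went from 418 ± 25.8 to 32.8 ± 3.90 for NAT1, an arylamine acetyltransferase, from 551 ± 18.7 to 44.3 ± 13.6 for PLPP6, a lipid phosphatase, from 377 ± 62.6 to 30.4 ± 4.45 for THNSL1, a threonine synthase-like protein, and from 359 ± 16.3 to 27.8 ± 12.2 for AAED1, a peroxiredoxin-like protein (SD, n = 3).

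The remaining 5 genes are poorly described or derive from transposons. CCDC71L stood at 509, 490.1 and 474 in DMSO and 17.6, 7.55 and 12.4 after compound 28, and its ratio of 39.2 was the closest to that of TBX3. Its paralogue CCDC71 fell from 978 ± 108 to 225 ± 27.7 (log2 change -2.12, adjusted p = 4.9e-07). FAM43A and PROSER2 stood at 768, 750.4 and 677 in DMSO and 19.1, 28.9 and 23.3 after compound 28, and at 302, 294 and 318 in DMSO and 8.81, 21.4 and 7.77 after compound 28. ZBED5 and JRKL are genes whose coding parts descend from DNA transposons. ZBED5 stood at 1987, 2084 and 1844 in DMSO and 113, 174 and 160.1 after compound 28, and JRKL at 525, 611 and 528 in DMSO and 22.0, 22.6 and 21.8 after compound 28. The JRKL compound libraries had the smallest spread of the set, with a coefficient of variation of 2.03%.

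Over all relatives tested, 91 genes related to 33 of the 52, 46 were called lower, 27 higher and 18 were not called, with a median log2 change of -0.46 against -0.03 over all genes. Of the 56 that reached the DMSO level limit, 32 were called lower and 15 higher, and 0 kept as little as 1/8 of the DMSO level. Among other protein-coding genes at that level, the share called lower ran from 44.2% with 9 or more coding exons to 69.9% with 1. At most 1/8 was left in 137 of 9488 genes at that level, the 52 included and the rule's names left out. Each of these 56 rose or fell less than the member it is related to, with a gap of 0.90 log2 units at the least (EPC2) and 3.77 at the median. Below that limit, 6 relatives kept at most 1/8 of the DMSO level. EFNA4, a ligand related to EFNB1, fell from 55.3 ± 8.53 to 0.490 ± 0.848, a log2 change of -5.37 that passed that of EFNB1 by 0.43 log2 units, with few reads left. The direction of the gaps over the 56 was nearly set in advance. A gene at that level that fell as far would have met the limits itself. Part of the size of the gap also follows from choosing the members as the genes that fell most.

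Gene structure, taken from GENCODE, was not used by the rule, and many of the 48 protein-coding members had few exons. The shares and medians that follow are descriptions without a test. In 16 of 48, or 33.3%, the coding sequence lay in 1 exon, against 369 of 8852, or 4.17%, of the other protein-coding genes with a DMSO mean of at least 300. Restricted to the DMSO range of the members, the share among other genes was 4.63%. Among the 16 are C16orf54, CCDC71L, CMTR2, CXCR2, FAM43A, HPDL, JRKL, KCTD12, MAGEF1, NAT1, PLPP6, PRMT6, THNSL1, TIFA and ZBED5, and 7 of the 48 had a single exon in all. The median number of coding exons was 3.5 against 9, and the median gene length 14274 against 32944 bases. The mature transcripts were of like length, with medians of 3263 and 3245 bases, and the coding lengths were 1256 and 1413 bases. The 23 genes left out by name included 16 protein-coding ones, of which 1 had a single coding exon, so with them kept in, the share was 26.6%. With the fold limit lowered to 8, it was 27.3% of 132 genes, and with the level limit lowered to 100 it was 35% of 100 genes.

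Fewer coding exons went with lower values across expressed protein-coding genes, most of which are not among the 52. Of 386 genes with 1 coding exon, 17 met both limits, or 4.40%. The share was 2.67% of 337 genes with 2 coding exons, 1.31% of 1149 with 3 to 4, 0.621% of 2256 with 5 to 8, and 0.188% of 4788 with 9 or more. Without the genes that met the limits, the median log2 change of the 369 genes with 1 coding exon was -1.01, and 69.9% were called lower and 17.6% higher. It was -0.50 with 2 coding exons, -0.21 with 3 to 4, -0.24 with 5 to 8 and -0.13 with 9 or more, where 44.2% were called lower and 32.3% higher. Another scaling shifts these medians together. The median level moved with the number of exons, from 1066 normalized counts in DMSO at 1 coding exon to 1817 at 9 or more. By gene length the order was less even. Of genes under 5 kb, 1.92% met both limits, and of those over 100 kb, 0.391%, but 5 of the 48 members were themselves over 100 kb. The part of expression level in these shares was not tested.

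**Figure D4:**
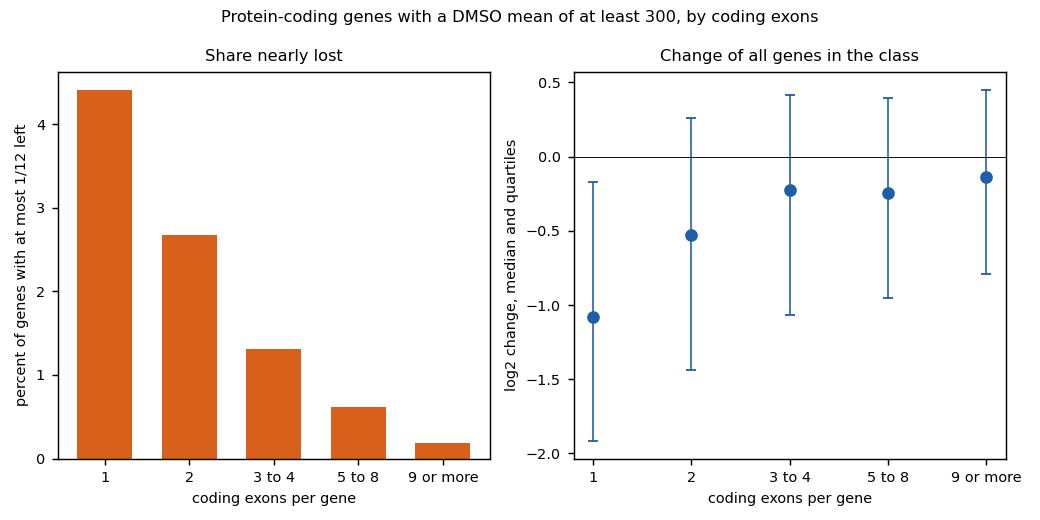
Protein-coding genes with a DMSO mean of at least 300, by number of coding exons. Left, the percent of genes with at most 1/12 left (bars, any gene name), which falls from 4.40% at 1 coding exon to 0.188% at 9 or more; right, the log2 change as median (point) with quartiles (bars), which goes from -1.08 to -0.14.

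Elements of the 3 prime UTR that mark unstable mRNAs differed less. The pentamer ATTTA, the core of AU-rich elements that destabilising proteins bind, was present in the 3 prime UTR of 41 of 48 members, or 85.4%, against 69.6% of the other genes. The 3 prime UTRs of members were longer, with medians of 1472 and 1124 bases, and per kilobase the median count was 2.06 against 1.66. VANGL1, with the longest 3 prime UTR of the set, held 20 copies, KCTD12 held 13 and IRS2 11. IRX3, HLX, PSRC1, C16orf54, KCNG1, HPDL and SLC29A3 held 0.

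RefSeq promoters (GRCh38.p14, 250 bases before to 50 after the start) were matched for 43 of the 52 genes. Their median GC content among coding genes was 63.0% against 65.7% in other expressed genes, with a median of 25 against 27 CpG dinucleotides. Motifs were searched on both strands, and shares are given for the 43, for 7630 other genes that reached the level limit, and for all 14335 rows with a promoter. TGACTCA, the AP-1 site to which JUN dimers bind, was in 4 promoters, or 9.30%, against 2.65% and 3.59%. The 4 are IL10RA, GIMAP6, SLC29A3 and AAED1. TATAAA was in 3, or 6.98%, against 4.73% and 7.50%, namely CMTR2, GCLC and SLC29A3. CCGGAAG, the core to which ETS factors bind, was in 4, or 9.30%, against 23.0% and 15.8%. GGGCGG, the SP1 box, was in 62.8% against 71.7% and 62.0%, and CCAAT in 46.5% against 37.7% and 36.0%. CACGTG, the E-box of MYC and its partners, was in 6.98% against 11.0% and 9.19%, and TGACGTCA, the CRE, was in 0 of 43 against 3.58% and 2.83%.
The promoters below are shown because they hold the AP-1 letters or TATAAA; each is the 250 bases before the start, 5′ to 3′ on the strand of the gene, with TGACTCA (or TGAGTCA, the same site on the other strand) and TATAAA in capitals.
SLC29A3, chr10:71319009-71319258, plus strand: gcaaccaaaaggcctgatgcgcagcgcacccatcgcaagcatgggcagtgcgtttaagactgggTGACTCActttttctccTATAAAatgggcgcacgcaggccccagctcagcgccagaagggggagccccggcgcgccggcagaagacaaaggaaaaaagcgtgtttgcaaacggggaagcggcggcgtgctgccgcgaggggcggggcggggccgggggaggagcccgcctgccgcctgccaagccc
IL10RA, chr11:117989695-117989944, plus strand: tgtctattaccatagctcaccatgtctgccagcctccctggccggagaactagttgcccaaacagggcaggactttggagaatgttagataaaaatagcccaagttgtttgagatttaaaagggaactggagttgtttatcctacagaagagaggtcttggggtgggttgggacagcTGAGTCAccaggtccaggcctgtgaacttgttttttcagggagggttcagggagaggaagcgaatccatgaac
GIMAP6, chr7:150632386-150632635, minus strand: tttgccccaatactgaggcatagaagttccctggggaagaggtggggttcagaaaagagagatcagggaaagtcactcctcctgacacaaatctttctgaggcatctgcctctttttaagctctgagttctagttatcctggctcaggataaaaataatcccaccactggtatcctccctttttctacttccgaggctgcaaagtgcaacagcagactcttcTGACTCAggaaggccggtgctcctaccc
AAED1, chr9:96655318-96655567, minus strand: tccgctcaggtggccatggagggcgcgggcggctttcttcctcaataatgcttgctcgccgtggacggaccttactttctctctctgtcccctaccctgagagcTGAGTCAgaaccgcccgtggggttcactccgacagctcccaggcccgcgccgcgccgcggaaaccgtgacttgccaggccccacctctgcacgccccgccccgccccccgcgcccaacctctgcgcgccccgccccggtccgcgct
CMTR2, chr16:71289723-71289972, minus strand: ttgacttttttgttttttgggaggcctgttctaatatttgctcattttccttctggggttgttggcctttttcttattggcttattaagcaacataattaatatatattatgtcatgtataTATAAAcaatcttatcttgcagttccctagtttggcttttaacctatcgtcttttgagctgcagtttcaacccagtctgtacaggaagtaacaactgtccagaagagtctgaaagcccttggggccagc
The AP-1 letters begin at position -186 in SLC29A3, -146 in AAED1, -73 in IL10RA and -28 in GIMAP6, counted from the base before the start as -1. TATAAA begins at -169 in SLC29A3 and at -129 in CMTR2, farther from the start than a TATA box usually lies. Presence of these letters is a description and says nothing of binding.

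The genes next to the 52 in the genome, members left out, had a lower median change than the genes next to other expressed genes, a difference that was not tested. Genes that the rule left out by name were kept among the neighbours. The 53 adjacent genes that were tested had a median log2 change of -0.68, with 30 called lower and 11 higher. Over 9561 genes adjacent to other expressed genes, the median was 0.06, with 35.1% called lower and 38.8% higher, against 56.6% and 20.8% next to members. Neighbours of members were farther away, at a median of 34707 against 7564 bases. Within 50 kb, the medians were -0.64 for 33 genes and 0.10 for 8499. Among neighbours that themselves reached the DMSO level limit, they were -0.81 for 27 genes and -0.15 for 5412. By arrangement, the medians next to members were -0.30 for 13 divergent neighbours, -1.19 for 10 convergent ones, -0.68 for 11 upstream and -0.72 for 19 downstream on the same strand. Next to other expressed genes they were -0.14, 0.17, 0.0047 and 0.30 in the same order. Of the 53, 4 had at most 1/8 left: EPHB3 beyond MAGEF1, PJA1 beyond EFNB1, DUSP10 beyond HLX and CX3CR1 beyond CSRNP1. Next to other expressed genes, 229 of 9561 did. All 4 neighbours of members lie more than 50 kb away. DUSP10 met both limits of the rule and was left out by name only. CX3CR1 is also among the names left out, but its DMSO mean of 275 was under the level limit.

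Divergent pairs that start close together can share a promoter region. JRKL and CCDC82 start 32 bases apart on opposite strands, and CCDC82 went from 773 ± 85.5 to 497 ± 9.44 (log2 change -0.63, adjusted p = 6.1e-04), so its log2 change was far smaller than the -4.58 of JRKL. FAAP24 and CEP89, a centriole gene, start 217 bases apart, and CEP89 went from 908 ± 46.4 to 349.7 ± 13.2 (log2 change -1.37, adjusted p = 1.6e-06) against -5.02 for FAAP24, a value that was -4.04 without compound 28 replicate 3, where FAAP24 had 1 read, and -5.81 without compound 28 replicate 2. Some adjacent genes lay far off: DUSP10 was 816364 bases from HLX, CX3CR1 108931 bases from CSRNP1 and ADRA2A 1068956 bases from GPAM. DUSP10, a MAP kinase phosphatase, fell from 445 ± 33.0 to 23.0 ± 9.17 (log2 change -4.29, adjusted p = 5.0e-07), and CX3CR1, the fractalkine receptor, from 275 ± 24.4 to 6.69 ± 1.93 (log2 change -5.19, adjusted p = 1.7e-07). ADRA2A, an adrenergic receptor gene on the far side of GPAM, went the other way, from 0.409 ± 0.356 to 415 ± 48.7 (log2 change 8.23, adjusted p = 4.5e-08). Of the 52, 19 overlap another gene of the table on the opposite strand and 5 on the same strand. The strand setting of the counting is not given in the sources used here, so reads of such pairs may not be told apart. ALPK1, which senses the same bacterial sugar that acts through TIFA and overlaps it on the other strand, fell from 843 ± 77.3 to 306 ± 43.6 (log2 change -1.46, adjusted p = 4.9e-06).

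Gene lists written down with earlier results of these data known held few of the 52, and their counts are descriptions beside 37.2% of all genes called lower. Most list genes reached the level limit, where the share called lower was larger. Among other protein-coding genes at that level it ran from 44.2% with 9 or more coding exons to 69.9% with 1. At most 1/8 was left in 137 of 9488 genes at that level, the 52 included. Names that the rule leaves out are in the 9488 but not in the 137. The first list was written as transcription repressors and activators with short-lived mRNAs, but mRNA half-lives were not measured here. Of its 71 tested genes, TBX3 and CSRNP1 among them, 44 were called lower, 21 higher and 6 were not called. Their median log2 change was -0.88, and 6 of the 55 that reached the level limit had at most 1/8 left. Of 34 genes of mitosis and the centrosome, 32 were called lower, 1 higher and 1 was not called, with a median of -1.66, and 5 of the 34, which all reached the level limit, had at most 1/8 left. Of 37 factors of RNA processing, tRNA and ribosome assembly, 27 were called lower and 6 higher, with a median of -0.83, and 1 of the 35 that reached the level limit had at most 1/8 left. Of 58 parts of ubiquitin ligases, 31 were called lower and 14 higher, with a median of -0.42, and 0 of the 51 that reached the level limit had at most 1/8 left. The last 3 lists held 0 of the 52. By symbol, the families with the most expressed genes were spread thinly over the set, with 1 of 158 SLC genes, 1 of 100 FAM genes, 1 of 61 CCDC genes and 1 of 55 RNF genes that reached the level limit.

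The remaining reads set how exactly the loss is known. None of the 52 was at 0 reads in any compound library, the lowest was 1 read of FAAP24, and 14 had under 10 reads in at least 1 compound library. The coefficient of variation over the 3 compound libraries had a median of 28.0% and reached 98.3% in FAAP24, with 76.2% in GPAM. Over 8635 other genes in the same range of compound means, the median was also 28.0%. In DMSO it was 9.44% for the members and 9.39% for 7144 other genes of the same range. No compound library was low throughout, as replicates 1, 2 and 3 were the lowest of the 3 for 15, 16 and 21 genes. Leaving out each library in turn gave 46 to 57 genes by the same rule, of which 45 to 50 were among the 52. When the lowest DMSO library and the highest compound library replaced the means, 18 of the 52 met the limits.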

How the data were processed

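RNA of 3 DMSO and 3 compound 28 samples was sequenced from polyadenylated RNA with a stranded kit, per the labels' protocols. The submitters' processing notes name fastp, HISAT2, StringTie, SAMtools and HTSeq and the builds hg19 and GRCh37. Tool versions and the strand setting are not given in the sources used here. In the table, the authors deposited a normalized signal per gene and library, which from its values is a read count divided by 1 factor per library: 100% of the values were whole multiples of 1 step within 0.01 read, so reads could be recovered. Their log2 fold changes, p-values and adjusted p-values, per the file headers, enter the text in 1 sentence that says so.

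The table had 32327 rows. The 5 HTSeq summary rows, with 30.4% to 32.8% of reads in DMSO and 40.4% to 46.9% after compound 28, were left out of totals and tests, and 54 further rows were not used. Another 8 rows with names like dates were kept and are not named. The main test was limma-trend (limma 3.58.1) on log2(normalized count + 1) over all 6 libraries, after filterByExpr of edgeR 4.0.16 on the recovered reads, with Benjamini-Hochberg adjustment over all 18326 genes and a threshold of 0.05. The added count of 1 shrinks the change of low genes on this scale. Where low libraries differ widely, as in FAAP24, the mean of logs instead gives a larger change than the ratio of means. The step was tested on simulated data. Alternatives were edgeR, DESeq2 1.42.0, other pseudocounts, filters and scalings, each library left out, and a replicate block.

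The genes, their relatives and the lists were chosen with earlier results of these data known. Genes named in the text are the 15 largest ratios, the 15 highest DMSO means, members of lists or families, those nearest the limits and those with extreme spread, and others by role, chosen after their values were seen. In the text, 1 of the 52 genes and 1 related gene are in the counts but are not reported here by name. GENCODE release 29 (GRCh38, another build than the submitters') gave biotypes, exons, lengths and gene order for 95.6% of rows, from 1 transcript per gene, and no coordinates. RefSeq on GRCh38.p14 gave promoters and microRNAs.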

Additional observations from a re-analysis of the deposited data

How the results depend on the processing

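All 52 genes were called lower in every alternative fit. Scaling moved all genes together. Over all genes tested, the median was -0.03 log2 units as reported, -0.48 by library sizes alone, -1.47 by mitochondrially encoded mRNAs (mitochondrial scaling), -1.13 by ribosomal protein mRNAs (ribosomal scaling) and 0.17 by upper quartiles, while the members less all genes stayed at -3.88 to -3.89. The median of the 52 was -3.91, and it was -3.71 with upper-quartile factors, -5.36 and -5.02 with mitochondrial and ribosomal scaling, -4.36 with library sizes, -3.83 with a pseudocount of 5, and -4.06 to -3.87 with 1 library left out. The median of adjacent genes was -0.68, and it was -0.48, -2.11, -1.78 and -1.13 under those scalings in the same order and -0.45 without a filter. Over all genes, 4257 were higher with library sizes only, 1839 higher and 13877 lower with mitochondrial scaling, 2259 higher and 12433 lower with ribosomal scaling, and 3784 higher among genes of at least 5 CPM, which are fewer.

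By the rule, 137 genes qualified at 8-fold and 24 at 16-fold, 106 at a DMSO mean of at least 100 and 11 at 1000, 18 by extreme libraries, and 114, 578 and 352 with library sizes, mitochondrial and ribosomal scaling. The share with 1 coding exon was 50% at a DMSO mean of at least 1000 (5 of 10 genes), a limit chosen, like the other limits tried for that share, after seeing the data. Reversed log2 changes were, for CMTR1, -0.35, -1.35 and -1.01 with library sizes, mitochondrial and ribosomal scaling and -0.00099 to 0.20 with 1 library left out (lowest without DMSO replicate 1); for GCLM, -0.22, -1.22 and -0.88; for AHRR, -0.70 and -0.36, GIMAP8, -0.70 and -0.36, NF1, -0.57 and -0.23, TBX1, -0.81 and -0.48, PRMT1, -0.96 and -0.62, and XIAP, -0.38 and -0.043, with mitochondrial and ribosomal scaling; for TBX20, -0.31, and IL10RB, -0.14, with mitochondrial scaling (IL10RB 0.20, adjusted p = 0.21, with ribosomal scaling); and for MON1B, 0.12 with upper-quartile factors and -0.21 to 0.059 with 1 library left out (above 0 without compound 28 replicate 2 and without DMSO replicate 3). Without compound 28 replicate 3, TBX20 was at 0.87 (adjusted p = 0.062). The cause was not tested beyond the scaling itself.

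No label states that replicate numbers pair the samples. Deviations of same-numbered libraries correlated at -0.03, 0.08 and 0.09, and those of different-numbered libraries at -0.14 to 0.11. With 3 libraries per group, such values cannot decide whether the samples were paired. With the replicate block, 6546 genes were higher, 6768 lower and all 52 members lower, and among the other genes named POLR3A was called lower (-0.31, adjusted p = 0.019). Depth limits the 14 genes with under 10 reads in a compound library.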
